A study of Homo sapiens with 6 samples.

Results

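The genes described here are 38 genes of DNA replication: those that load and fire replication origins, the helicase, the polymerases with their clamp and clamp loader, the single-strand binding and joining proteins, and a few G1/S genes that are switched on with them. They were taken by gene symbol from the matrix of gene values, and all 38 were found among its 60671 annotated genes. To compare 2 zones of a breast tumor, RNA-seq had been performed on xenografts of MDA-MB-231 cells, a line from a human breast cancer classed as triple negative, labelled WT and injected orthotopically into the mammary fat pads of NSG mice, an immunodeficient strain. Tissue came from the tumor core (TC, 3 samples) or the tumor margin (TM, 3 samples), and no agent, dose or time separates the groups. NSG mice lack mature lymphocytes but keep fibroblasts, vessels, muscle and macrophages. The study's figure legend describes core and margin as separated from tumor tissue, and it gives the sample size as mice per group. Neither the legend nor the labels say which core and margin samples came from the same animal. The main comparison therefore treated the zones as unpaired, and p-values measure only the spread between these samples.

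Before a cell copies its DNA, the origin recognition complex, CDC6 and CDT1 load the MCM2-7 helicase onto origins in G1. At the start of S phase CDC45, the GINS complex and MCM10 turn the helicase on, and primase with DNA polymerase alpha, then polymerases delta and epsilon with the PCNA clamp, copy both strands. Many of these genes are transcribed together at the G1/S boundary by E2F factors, which RB proteins hold in check. Mitotic genes are mostly transcribed later, in G2 and M, from promoters with a different element called the CHR.

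To describe the promoters of the members, promoter windows were read from RefSeq (GRCh38.p14), from 250 bases before the start site to 50 bases after it. A window was found for 32 of the 38 members (none for MCM4, MCM5, GINS4, RPA2, RPA3 and CCNE2). The E2F motif was searched as the exact 8-mers TTTCCCGC, TTTGGCGC, TTTCGCGC and TTTGCCGC on both strands. It was present in 19 of 32 members (59.4%), in 1090 of all 27305 genes with a window (4.0%), in 2 of 21 mitotic genes with a window (9.5%) and in 8 of 27 other replication genes with a window (29.6%). The CHR letters TTTGAA, searched on both strands, showed the opposite distribution, with 0 of 32 members, 16 of 21 mitotic genes (76.2%) and 18.2% of all genes. The GC box (GGGCGG, both strands) was in 75.0% of members, 71.4% of mitotic genes, 88.9% of other replication genes and 48.3% of all genes. The CCAAT box (CCAAT, both strands) was in 59.4% of members, 81.0% of mitotic genes, 63.0% of other replication genes and 39.7% of all genes. A match is a description of the letters and not a measured binding site, and no match says nothing about a factor. Since the lists hold genes known for transcription at G1/S or in G2 and M, these shares are not an independent check of the lists.

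The 19 members with an E2F match are shown because they carry that shared feature. Each line gives the match in capitals with 10 bases on either side, read 5′ to 3′ on the strand of the match, and 17 of the 19 lie between 100 bases before and 50 bases after the start site.
CDC6, chr17:40287876-40287903: gccattcggaTTTGGCGCgagcgcggct
CDT1, chr16:88803744-88803771: tcccgccaaaTTTCCCGCgggcgccctg
GMNN, chr6:24775323-24775350: ctgggtcggtTTTGGCGCgctctcactt
MCM2, chr3:127598403-127598430: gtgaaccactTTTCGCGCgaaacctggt
MCM3, chr6:52284729-52284756: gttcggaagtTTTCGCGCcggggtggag
MCM6, chr2:135876512-135876539: gagctggagaTTTCGCGCcaaacctgac
MCM7, chr7:100101389-100101416: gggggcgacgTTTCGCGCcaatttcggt
GINS1, chr20:25407668-25407695: cgctccgcgcTTTGGCGCcgaacaaagc
GINS2, chr16:85688968-85688995: cggccgccgtTTTCCCGCcacggcgaga
GINS3, chr16:58392456-58392483: ttgaaactcgTTTCCCGCgcccggggac
POLA1, chrX:24693771-24693798: cggacgcgcgTTTGGCGCcctgtgatga
POLA2, chr11:65261899-65261926: tggctcccggTTTCGCGCatgcgtgcac
POLE, chr12:132687343-132687370: aggggagaaaTTTGGCGCgctcccaccc
POLE2, chr14:49688202-49688229: atatttgcgaTTTGGCGCcaccgccgca
PCNA, chr20:5126664-5126691: acgcacgcctTTTCCCGCccctgacgct
RFC3, chr13:33818084-33818111: agagacaagtTTTCCCGCgagctccaaa
LIG1, chr19:48170441-48170468: cttcacccctTTTCCCGCcctcctccca
E2F1, chr20:33686388-33686415: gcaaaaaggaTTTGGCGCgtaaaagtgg
UHRF1, chr19:4909477-4909504: ctctgattttTTTCCCGCgaaaactcgg

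The match nearest the start site is the one shown, and 5 of the 19 members hold more than 1 match. Counting every match, overlapping ones included, 9 members hold TTTCCCGC, 8 hold TTTGGCGC, 6 hold TTTCGCGC and 1 holds TTTGCCGC. Whole windows are shown for POLE and POLA2, the members with the largest differences between TC and TM, and for RFC2, the member with the smallest. Capitals again mark the E2F match, here on the strand of the gene, so that in POLE the 8-mer reads in reverse complement. RFC2 holds none.
POLE, chr12:132687293-132687592, minus strand: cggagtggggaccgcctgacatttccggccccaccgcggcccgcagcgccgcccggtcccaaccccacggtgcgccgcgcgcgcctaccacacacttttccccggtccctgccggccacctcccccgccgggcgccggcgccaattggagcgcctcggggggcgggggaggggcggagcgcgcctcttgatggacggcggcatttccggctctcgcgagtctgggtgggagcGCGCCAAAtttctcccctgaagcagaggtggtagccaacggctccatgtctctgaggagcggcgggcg
POLA2, chr11:65261712-65262011, plus strand: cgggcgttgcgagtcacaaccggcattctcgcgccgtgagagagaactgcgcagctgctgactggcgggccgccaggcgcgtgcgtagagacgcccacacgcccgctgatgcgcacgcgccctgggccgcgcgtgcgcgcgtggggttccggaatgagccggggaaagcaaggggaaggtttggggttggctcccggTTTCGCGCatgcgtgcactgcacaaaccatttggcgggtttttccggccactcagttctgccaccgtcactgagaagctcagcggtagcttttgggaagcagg
RFC2, chr7:74254350-74254649, minus strand: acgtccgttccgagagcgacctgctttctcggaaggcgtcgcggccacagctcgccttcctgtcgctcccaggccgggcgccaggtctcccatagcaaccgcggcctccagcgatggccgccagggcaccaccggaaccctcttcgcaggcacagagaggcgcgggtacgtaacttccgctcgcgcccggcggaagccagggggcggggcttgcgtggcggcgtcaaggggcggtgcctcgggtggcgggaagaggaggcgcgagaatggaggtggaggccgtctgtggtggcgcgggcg

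Expression values were TPM, a share of all transcripts corrected for transcript length, which keeps no sequencing depth, and the only measure of error was therefore how far samples of a zone lay apart. TC was compared with TM by limma on log2(TPM + 1) over the 13861 genes that reached 1 TPM in 3 or more of the 6 samples, and differences are given as TC minus TM on that scale, which understates the change of low genes. All 38 members passed the filter. Mean levels over the 6 samples ran from 4.16 TPM for POLA2 to 200 TPM for MCM7, with a median of 30.6 TPM, and 12 members had a mean of at least 50 TPM.

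The cell line markers VIM, CD44, EGFR, KRT8 and KRT18 were high in every sample (summed 5003 to 6506 TPM), and ESR1, PGR and CDH1 were at or below 0.36 TPM. ERBB2, which encodes the HER2 receptor, and EPCAM, also taken as low in this line, were not near 0. ERBB2 was at 22.3 to 24.1 TPM in TC and at 30.8 to 40.7 TPM in TM, without overlap, and EPCAM was at 3.66 to 6.02 TPM over all samples. Host tissue was not even between the samples. The summed level of 17 skeletal muscle markers was 6.02 to 9.70 TPM in TC, 211 and 573 TPM in TM replicates 1 and 2, and 3.64 TPM in TM replicate 3. The 11 fibroblast markers summed to 66.3 to 226 TPM in TC, to 479 and 1008 TPM in TM replicates 1 and 2, and to 91.5 TPM in TM replicate 3. Macrophage markers (10 genes, 95.9 to 109 TPM) and endothelial markers (8 genes, 28.2 to 42.7 TPM) were more even. Of the macrophage genes 6 had a mean under 1 TPM, as did 6 of the endothelial genes, so these sums rested on few genes. Such genes numbered 5 of the 11 fibroblast and 3 of the 17 muscle markers. Adipocyte markers (5 genes) summed to at most 0.86 TPM. C1QA, C1QB, C1QC, EMCN, ADIPOQ and LEP were at 0 in all samples. Mitochondrially encoded genes took 6.08 to 8.82% of TPM in TC and 9.23 to 11.1% in TM, ribosomal protein genes took 24.1 to 26.4% in TC and 19.5 to 23.6% in TM, and the values of TM replicate 3 summed to 994381 rather than 1000000. The part of these differences in the results was not tested, and the counts of lower genes and of genes at an unadjusted p under 0.05 are also given without TM replicates 1 and 2. In bulk tissue, fewer cells of a type and less RNA per cell cannot be told apart.

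As a set, the replication genes were lower in TC than in TM. The difference was below 0 for 36 of 38 members (67.0% of all tested genes), with a median of -0.45 against -0.14 for all tested genes. None of the 38 was called at an adjusted p under 0.05 (limma with Benjamini-Hochberg adjustment over all tested genes, smallest 0.0658, for POLE), a threshold that 0.137% of all tested genes passed. At an unadjusted limma p under 0.05, 19 members of 38 were lower in TC, where 14.2% of all tested genes were, and 1 member, RPA3, was higher, where 1.93% were. The zones held separate ranges of values for 21 members that were lower in TC (18.9% of all tested genes) and for 1 that was higher (3.28%), whereas 16 members overlapped between TC and TM. Without TM replicates 1 and 2, the samples rich in muscle and fibroblast markers, the median was -0.21 against -0.06 for all genes, 34 members were lower in TC, and 1, PRIM1, was called. There, 5 members were lower at an unadjusted p under 0.05, against 8.72% of all tested genes, and 1 was higher, against 5.74%.

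The size of these differences depended on how the samples were scaled. Rescaling by median-of-ratios factors moved the median of all tested genes from -0.14 to 0.05 and that of the members to -0.25. Relative to the median of all genes the members lay at -0.31 as deposited and at -0.295 after rescaling, and 35 of 38 were below that median on both scales. Only 31 were below 0 after rescaling, and 5 were lower at an unadjusted p under 0.05 (GINS4, POLA2, POLD1, POLE and UHRF1, against 6.70% of all tested genes) and 1 higher (RPA3, against 6.81%). The ranges of the zones stayed apart for 8 lower members (9.74% of all tested genes), namely these 5, MCM3, POLA1 and RFC3, and for RPA3 on the higher side (10.3%). By role, an unadjusted p under 0.05 was reached after rescaling by 3 polymerase genes and by 1 gene each of helicase activation, RPA and the G1/S group. Overlap between zones is described below on the scale as deposited.

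**Figure D1:**
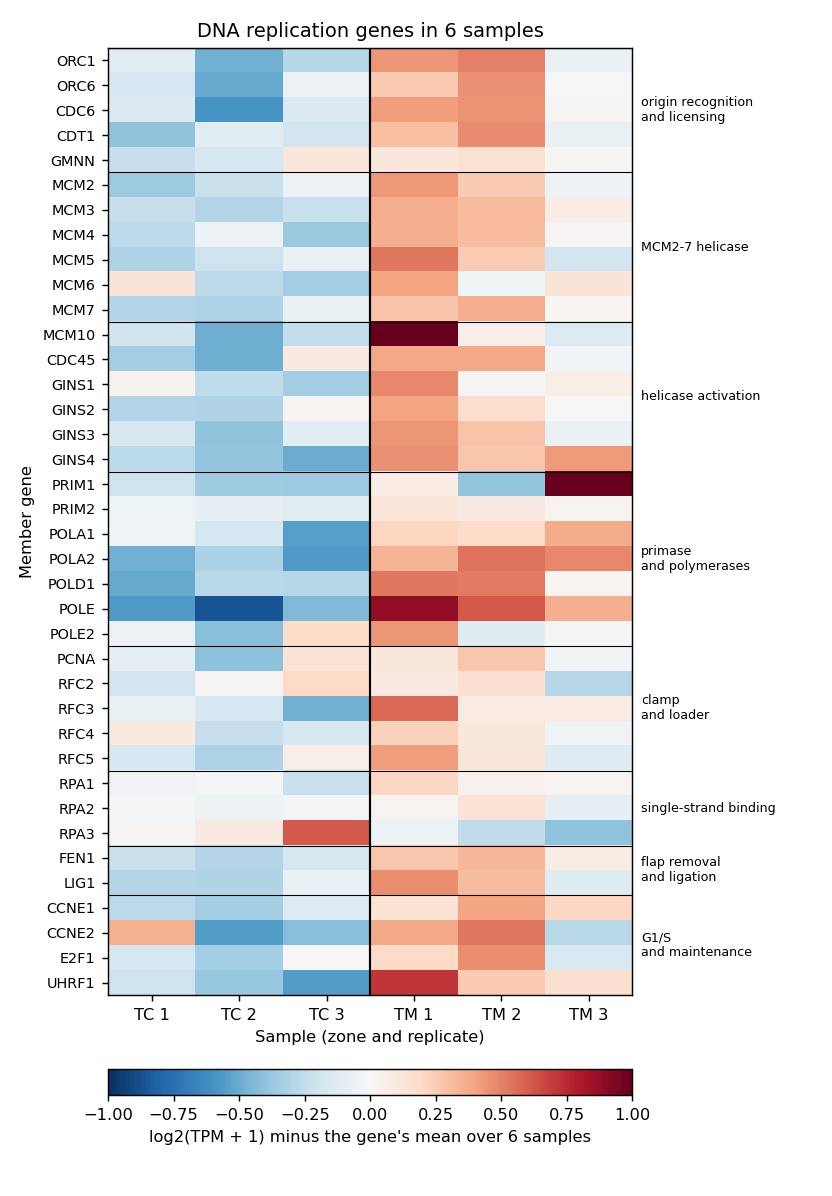
Levels of the 38 replication genes in each of the 6 samples, as log2(TPM + 1) minus the gene's own mean (color, log2 units, limited to -1 and 1), with genes in rows by role and samples in columns. TM replicates 1 and 2 hold the highest value of 34 members between them, TM replicate 3 that of 2, and RPA3 is high in TC replicate 3.

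The samples of a zone were not alike. The mean log2(TPM + 1) over the 38 members was 4.67, 4.55 and 4.69 in TC replicates 1 to 3 and 5.20, 5.09 and 4.89 in TM replicates 1 to 3. The highest sample was TM replicate 1 for 20 members, TM replicate 2 for 14, and TM replicate 3 and TC replicate 3 for 2 each. The lowest sample was TC replicate 2 for 19 members, TC replicate 3 for 10 and TC replicate 1 for 5, and a TM sample for 4. As deposited, all 3 TM samples had a higher list level than all 3 TC samples. After median-of-ratios rescaling the levels were 4.64, 4.64 and 4.90 in the TC samples and 4.99, 5.00 and 4.87 in the TM samples, and TM replicate 3 lay below TC replicate 3 and the zones overlapped.

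Of the genes of origin recognition and licensing, all 5 were lower in TC (median -0.48), 4 of them with an unadjusted p under 0.05. CDC6, the ATPase that loads MCM2-7 onto origins, was at 30.1, 21.8 and 30.1 TPM in TC and at 44.8, 45.9 and 33.6 TPM in TM, a difference of -0.58 (SE 0.19, limma adjusted p = 0.189). ORC1, the largest subunit of the origin recognition complex, was at 7.45, 5.58 and 6.52 TPM in TC and at 11.5, 12.0 and 7.75 TPM in TM, a difference of -0.59 (SE 0.23, limma adjusted p = 0.263). In both genes the groups did not overlap, and TM replicate 3 lay just above the highest TC sample.

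CDT1, the partner of CDC6 in loading, was at 21.3, 26.5 and 24.9 TPM in TC and at 35.4, 40.1 and 27.1 TPM in TM (difference -0.47, limma adjusted p = 0.267). ORC6, the smallest subunit of the recognition complex, was at 31.6, 24.9 and 34.2 TPM in TC and at 42.9, 49.3 and 35.7 TPM in TM (difference -0.48, limma adjusted p = 0.244). Neither gene overlapped between the zones, again by a narrow margin in TM replicate 3. GMNN encodes geminin, the inhibitor that binds CDT1 once S phase has begun, and its values overlapped, at 41.2 ± 5.54 TPM in TC and 46.9 ± 2.38 TPM in TM (SD, n = 3 each). Its difference of -0.19 turned to 0.02 after median-of-ratios rescaling. The CDT1 to GMNN ratio, which multiplying a sample by a factor cannot alter, was 0.575, 0.681 and 0.525 in the TC samples and 0.743, 0.820 and 0.611 in the TM samples, with overlap.

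The 6 subunits of the MCM2-7 helicase were lower in TC together, over a narrow range of differences from -0.50 (MCM3) to -0.32 (MCM6), and 4 had an unadjusted p under 0.05. MCM3 was at 73.6, 70.6 and 74.2 TPM in TC and at 112, 108 and 91.4 TPM in TM, a difference of -0.50 (SE 0.13, limma adjusted p = 0.121). MCM7 (chr7:100092728-100101940), the most abundant member, was at 160, 158 and 187 TPM in TC and at 239, 254 and 199.8 TPM in TM (difference -0.45, limma adjusted p = 0.169). The lowest TM sample of MCM3 stood 17.3 TPM above its highest TC sample, a wider gap than in the other subunits.

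MCM4 was at 76.3, 88.1 and 70.8 TPM in TC and at 118, 114 and 92.6 TPM in TM (difference -0.46, limma adjusted p = 0.183). MCM2 was at 45.1, 50.1 and 56.2 TPM in TC and at 79.2, 70.3 and 56.4 TPM in TM (difference -0.43, limma adjusted p = 0.255), so that TM replicate 3 all but met TC replicate 3. MCM5 (-0.39) and MCM6 (-0.32) overlapped between the zones. The make-up of the 6-subunit pool was alike in both: MCM7 was 36.3 ± 2.09% of the summed MCM2-7 TPM in TC and 36.4 ± 1.97% in TM, and MCM6, the lowest, was 5.06 ± 1.14% and 4.67 ± 0.80% (SD, n = 3). All 6 shares overlapped between the groups.

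The genes of helicase activation, CDC45, MCM10 and the 4 GINS genes, were all lower in TC (median -0.47), 2 with an unadjusted p under 0.05. GINS4 (chr8:41529206-41545046, plus strand), which encodes the SLD5 subunit, was at 9.87, 8.95 and 8.27 TPM in TC and at 17.0, 14.9 and 16.6 TPM in TM. The difference was -0.77 (SE 0.17, limma adjusted p = 0.0926), its groups did not overlap, and TM replicate 3 was close to TM replicate 1. An antisense gene, AC009630.2, overlaps GINS4 at 1.90 to 5.23 TPM, and reads of the pair cannot be told apart where strand was not used.

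CDC45, which joins MCM2-7 and GINS in the active helicase, was at 23.5, 21.1 and 32.1 TPM in TC and at 39.5, 39.5 and 29.4 TPM in TM (difference -0.49, limma adjusted p = 0.283), with TC replicate 3 above TM replicate 3. GINS1, GINS2 and GINS3 had differences of -0.38, -0.38 and -0.44 without reaching an unadjusted p of 0.05. GSE1 overlaps GINS2 on the opposite strand, at 6.73 to 8.68 TPM in TC and 12.8 to 14.65 TPM in TM. MCM10, a firing factor, had a difference of -0.62 that leaned on TM replicate 1, at 17.2 TPM against 5.44 to 8.35 TPM in the other 5 samples. Within the GINS complex, the GINS4 to GINS1 ratio was 1.18, 1.35 and 1.34 in the TC samples and 1.45, 1.81 and 1.94 in the TM samples, without overlap.

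**Figure D2:**
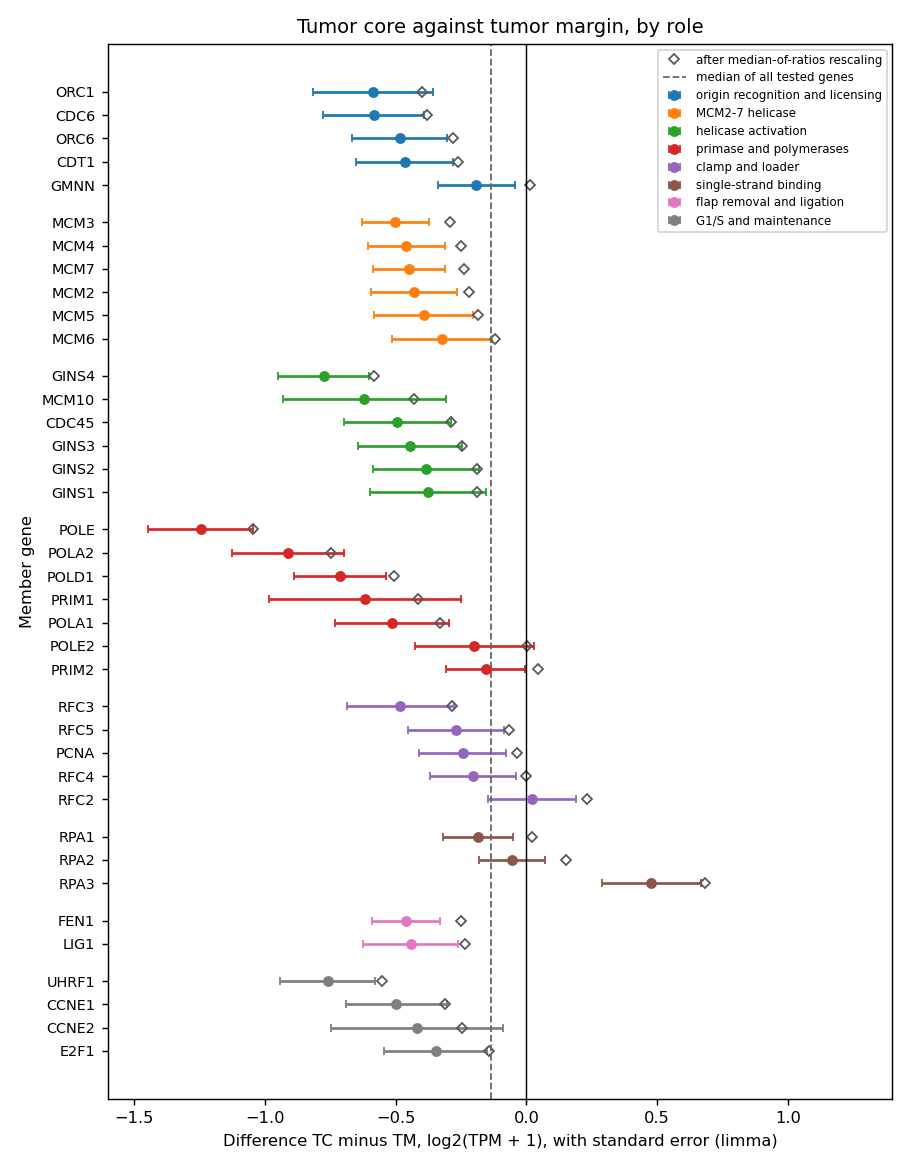
Difference between TC and TM in log2(TPM + 1) for each replication gene, by role. Filled points are TC minus TM with the standard error from limma, open diamonds are the same after median-of-ratios rescaling, and the dashed line is the median of all tested genes (-0.14). POLE lies furthest to the left (-1.25), RPA3 is furthest to the right (0.48), and the open diamonds lie to the right of the filled points.

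The primase and polymerase genes included POLE and POLA2, the largest differences of the 38, all 7 genes were lower in TC (median -0.62), and 4 had an unadjusted p under 0.05. POLE (chr12:132623753-132687365, minus strand), the catalytic subunit of the leading-strand polymerase epsilon, was at 12.2, 9.70 and 13.3 TPM in TC and at 35.1, 28.9 and 24.1 TPM in TM. The mean was 11.7 ± 1.86 TPM in TC and 29.3 ± 5.51 TPM in TM (SD, n = 3), and the difference was -1.25 (SE 0.20, 95% confidence interval -1.71 to -0.79, limma adjusted p = 0.0658). Every TM sample was above every TC sample, by at least 10.7 TPM, and POLE was the single member whose difference exceeded 1 in size.

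POLA2 (chr11:65261762-65305589, plus strand), the accessory subunit of polymerase alpha, was the least abundant member, at 2.51, 2.93 and 2.31 TPM in TC and at 5.20, 6.16 and 5.85 TPM in TM. Its difference was -0.91 (SE 0.21, limma adjusted p = 0.0994), with TM replicate 3 between the other TM samples. POLD1, the catalytic subunit of polymerase delta, was at 31.4, 37.0 and 36.7 TPM in TC and at 65.3, 64.9 and 45.6 TPM in TM (difference -0.71, SE 0.18, limma adjusted p = 0.116). POLA1, the catalytic subunit of polymerase alpha, was at 6.49, 5.85 and 4.29 TPM in TC and at 7.98, 7.77 and 9.0 TPM in TM (difference -0.51, limma adjusted p = 0.298). None of these genes overlapped between the zones. Another gene model, AP000944.2, lies on the same strand over POLA2 at 1.21 to 3.24 TPM, so the split of reads between them is uncertain.

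The partners of these polymerases differed less. POLE2, the B subunit of polymerase epsilon, overlapped, at 17.1 ± 3.71 TPM in TC and 19.8 ± 4.53 TPM in TM (SD, n = 3), with a difference of -0.20 that became 0.00 after median-of-ratios rescaling. The POLE to POLE2 ratio was 0.701, 0.732 and 0.646 in the TC samples and 1.41, 1.74 and 1.35 in the TM samples. This ratio did not overlap between the zones. POLE3, another subunit of polymerase epsilon, had a difference of -0.25 and POLE4 of 0.26, and the POLE to POLE3 ratio was 0.184 to 0.250 in TC and 0.420 to 0.542 in TM. The POLD1 to POLD2 ratio was 0.174 to 0.182 in TC and 0.213 to 0.289 in TM, and that of POLA2 to POLA1 was 0.387 to 0.538 and 0.650 to 0.793. Ratios of PRIM1 to PRIM2 (1.34 to 1.45 in TC, 1.15 to 3.89 in TM), MCM3 to PCNA and CCNE1 to CCNA2 overlapped between the zones. All these ratios were chosen after the values were seen, and no test was made of them.

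Primase is made of PRIM1 and PRIM2. PRIM1 (chr12:56731596-56752373, minus strand), the catalytic subunit, was at 23.6, 21.3 and 21.1 TPM in TC and at 28.95, 20.6 and 66.7 TPM in TM, so its difference of -0.62 (SE 0.37, limma adjusted p = 0.473) rested on TM replicate 3. Without TM replicates 1 and 2, the difference was -1.56 (limma adjusted p = 0.0188), which compares that single sample with TC. PRIM1 overlaps NACA, a far more abundant gene on the same strand, which was at 821 TPM in TM replicate 3 and at 900 to 1136 TPM in the other samples. PRIM2 was at 15.9 ± 0.37 TPM in TC and 17.8 ± 0.62 TPM in TM (SD, n = 3), a difference of -0.16 that turned to 0.04 after median-of-ratios rescaling.

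**Figure D3:**
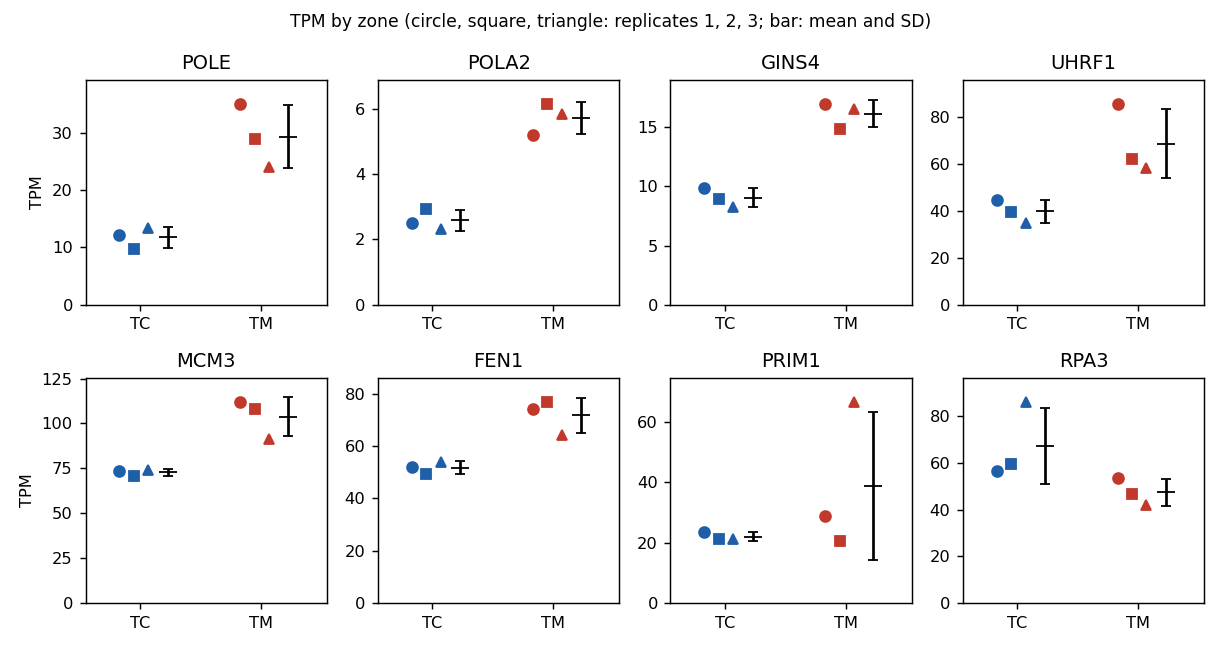
TPM of POLE, POLA2, GINS4, UHRF1, MCM3, FEN1, PRIM1 and RPA3 in each sample, with TC in blue and TM in red, a marker shape for each replicate number, and the mean with its SD (n = 3) in black; each axis starts at 0. The zones are apart in all panels except PRIM1, where TM replicate 3 alone stands high at 66.7 TPM, and RPA3 is the panel with TC above TM.

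PCNA, the sliding clamp, and the 4 RFC genes of its loader had a median difference of -0.24, and 1 of 5, RFC3, had an unadjusted p under 0.05. RFC3 was at 17.2, 16.0 and 12.7 TPM in TC and at 27.3, 19.2 and 19.2 TPM in TM (difference -0.48, SE 0.20, limma adjusted p = 0.297), without overlap. PCNA was at 110 ± 20.7 TPM in TC and 129 ± 13.9 TPM in TM (SD, n = 3) and overlapped (difference -0.24, limma adjusted p = 0.540). RFC2 was level, at 74.7 ± 10.1 TPM in TC and 73.8 ± 12.0 TPM in TM, with a difference of 0.02 (95% confidence interval -0.36 to 0.41). RFC4 (-0.20) and RFC5 (-0.27) overlapped too, and each lies opposite an abundant gene, EIF4A2 and WSB2.

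The 3 subunits of RPA, which coats single-stranded DNA, had differences of both signs. RPA1 and RPA2 had small differences of -0.18 and -0.06, which became 0.02 and 0.15 after median-of-ratios rescaling. RPA3 (chr7:7636518-7718607, minus strand), the smallest subunit, was at 56.3, 59.4 and 86.0 TPM in TC and at 53.5, 46.6 and 41.9 TPM in TM, and was the single member higher in TC without overlap. Its difference was 0.48 (SE 0.19, limma adjusted p = 0.267), and it was 0.29 without TC replicate 3. The RPA1 to RPA3 ratio was 0.940, 0.908 and 0.539 in the TC samples and 1.18, 1.2 and 1.32 in the TM samples. UMAD1 overlaps RPA3 on the opposite strand, at 6.73 to 14.5 TPM.

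Flap removal and ligation were represented by 2 genes, both lower in TC with an unadjusted p under 0.05. FEN1, the nuclease that trims Okazaki fragments, was at 52.0, 49.4 and 54.0 TPM in TC and at 74.1, 76.8 and 64.2 TPM in TM, a difference of -0.46 (SE 0.13, limma adjusted p = 0.144). LIG1, the ligase that joins them, was at 35.1, 34.8 and 41.1 TPM in TC and at 60.0, 54.0 and 39.6 TPM in TM, a difference of -0.44 (SE 0.18, limma adjusted p = 0.282). FEN1 did not overlap between the zones, and LIG1 did, since TC replicate 3 was above TM replicate 3. FADS2 overlaps FEN1 on the same strand, at 102 to 147 TPM, and TMEM258 overlaps FEN1 on the opposite strand, at 121 to 180 TPM.

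All 4 genes of the G1/S step and of chromatin maintenance were lower in TC (median -0.46), 2 with an unadjusted p under 0.05. UHRF1 (chr19:4903080-4962154, plus strand), which guides DNA methylation to newly copied DNA, was at 44.7, 39.5 and 34.8 TPM in TC and at 85.5, 62.1 and 58.0 TPM in TM, a difference of -0.76 (SE 0.18, limma adjusted p = 0.104). CCNE1, cyclin E1, the partner of CDK2 at the G1/S boundary, was at 6.34, 5.98 and 7.06 TPM in TC and at 8.75, 10.7 and 9.21 TPM in TM (difference -0.50, limma adjusted p = 0.259). Both were apart between the zones. CCNE2, cyclin E2, overlapped (-0.42), with TC replicate 1 (6.23 TPM) near the TM samples, and its difference was 0.07 without TM replicates 1 and 2. INTS8 and NDUFAF6 lie over CCNE2 on the opposite strand, at 9.55 to 19.5 and 15.3 to 24.8 TPM. E2F1, the transcription factor, overlapped as well, at 21.9 ± 2.69 TPM in TC and 28.4 ± 6.16 TPM in TM (SD, n = 3, difference -0.35).

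To further place the members, genes of the same pathway outside the 38 were examined. Of 34 other replication genes, all tested, 27 were lower in TC (79.4%, against 67.0% of all tested genes, median -0.20). An unadjusted p under 0.05 was reached by 5, all lower in TC (14.7%, where 14.2% of all tested genes were). After median-of-ratios rescaling 17 were lower (median -0.00076), and 4 had an unadjusted p under 0.05. At that threshold 8.82% of the list were lower and 2.94% higher, against 6.70% and 6.81% of all tested genes. After quantile normalization 18 were lower (median -0.04), and 20 were without TM replicates 1 and 2 (median -0.07). Without TM replicate 3, 10 had an unadjusted p under 0.05, all lower in TC (29.4%, where 16.8% of all tested genes were). CHTF18, part of an alternative clamp loader, was at 12.8, 13.0 and 10.9 TPM in TC and at 29.8, 27.2 and 27.2 TPM in TM, a difference of -1.14 (SE 0.16, limma adjusted p = 0.0510). RECQL4, a helicase that acts in origin firing, had a difference of -0.75 (limma adjusted p = 0.0843), the histone chaperone CHAF1A of -0.58, the firing factor TICRR of -0.90, and CDC7, the kinase that phosphorylates MCM2-7, of -0.56 with overlap. The loader subunit RFC1, with -0.10, and POLE4 were among those that did not reach an unadjusted p of 0.05.

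Of 28 regulators of the G1/S step, 27 were tested, CCND2 being listed at 0 in all samples. Their median was -0.13, close to that of all tested genes, and 19 were lower in TC (70.4%, against 67.0% of all tested genes). An unadjusted p under 0.05 was reached by 2, both lower (7.41%, where 14.2% of all tested genes were). The median was 0.08 after median-of-ratios rescaling (11 lower) and -0.01 without TM replicates 1 and 2 (14 lower). After rescaling 1 gene, higher in TC, had an unadjusted p under 0.05 (3.7%, against 6.81% of all tested genes). Without TM replicate 3, 7 genes reached that threshold, all lower (25.9%, against 16.8%). In the fit of all samples the 2 genes at that threshold were E2F4, at 64.3 ± 3.35 TPM in TC and 90.9 ± 4.03 TPM in TM (difference -0.49, limma adjusted p = 0.106), and the phosphatase CDC25A (difference -0.64, limma adjusted p = 0.206). SKP2 and E2F8 were the next by p, at -0.47 and -0.51. The activator genes E2F2 and E2F3 had differences of -0.37 and -0.36, CDK2 of -0.28, the CDK inhibitor CDKN1A of -0.05 and RB1 of 0.34, all with overlap between the zones. Of 9 genes of dNTP supply, 7 were lower in TC (77.8%, against 67.0% of all tested genes, median -0.18). RRM2, a subunit of ribonucleotide reductase, had an unadjusted p under 0.05, at 78.2 to 104 TPM in TC and 107 to 155 TPM in TM. That is 11.1% of the list, where 14.2% of all tested genes were lower at that threshold. The direction of this list was not stable: 4 of 9 were lower after median-of-ratios rescaling (median 0.03) and 3 of 9 without TM replicates 1 and 2 (median 0.20). Without TM replicate 3, 8 were lower (median -0.38), and 6 had an unadjusted p under 0.05, all lower (66.7%, against 16.8% of all tested genes). RRM1 (-0.41), TK1 (-0.32) and SAMHD1 (-0.33) followed, with overlap.

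Genes of mitosis, which act in the later part of the cell cycle, were followed for comparison. Of 26 mitotic genes 17 were lower in TC (65.4%, against 67.0% of all tested genes), with a median of -0.12 against -0.14 for all tested genes. An unadjusted p under 0.05 was reached by 2, AURKB (-0.56) and KIF20A (-0.42) (7.69%, where 14.2% of all tested genes were lower at that threshold). These values rested on single samples and on scaling. Without TM replicate 3, 25 were lower (96.2%, against 71.6% of all tested genes, median -0.36). There, 11 had an unadjusted p under 0.05, all lower (42.3%, against 16.8% of all tested genes). Without TM replicate 1, 12 were lower (46.2%, against 60.8% of all tested genes, median 0.0088). Without TM replicates 1 and 2, which leaves 1 TM sample, 5 were lower (19.2%, against 56.2% of all tested genes). The median was 0.24 there, against -0.06 for all tested genes. After median-of-ratios rescaling, 10 were lower (38.5%, against 43.9% of all tested genes, median 0.08) and 0 had an unadjusted limma p under 0.05. In the fit of all samples as deposited, CDC20 (-0.36), PLK1 (-0.49) and MKI67 (-0.43) did not reach an unadjusted limma p under 0.05. MKI67 was at 47.6 and 39.8 TPM in TM replicates 1 and 2 but at 19.5 TPM in TM replicate 3, under all TC samples (22.3 to 28.8 TPM). In TM replicate 1, 35 of 38 replication genes (92.1%) and 22 of 26 mitotic genes (84.6%) were above every TC sample, compared with 50.3% of all tested genes. In TM replicate 2 the counts were 32 (84.2%) and 15 (57.7%), compared with 40.8%. In TM replicate 3 they were 24 (63.2%) and 1 (3.85%), compared with 35.8%. There, 16 mitotic genes and 3 replication genes were below every TC sample, and the share of all tested genes below was not counted. The mean log2(TPM + 1) of the replication genes minus that of the mitotic genes was -0.55, -0.38 and -0.40 in the TC samples, -0.34 and -0.26 in TM replicates 1 and 2, and 0.17 in TM replicate 3. After median-of-ratios rescaling, 21, 23 and 12 replication genes (55.3, 60.5 and 31.6%) and 10, 9 and 1 mitotic genes (38.5, 34.6 and 3.85%) were above every TC sample in TM replicates 1, 2 and 3, compared with 25.3, 26.2 and 27.9% of all tested genes. No test was made of these per-sample values.

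**Figure D4:**
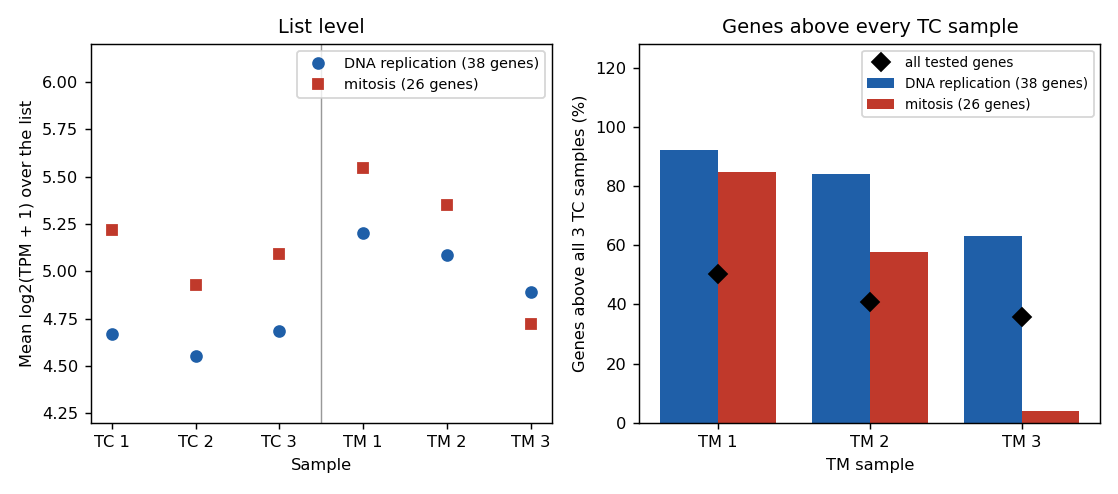
Left, mean log2(TPM + 1) over the 38 replication genes (circles) and 26 mitotic genes (squares) in each sample, on an axis that does not start at 0. Right, percent of each list above all 3 TC samples in each TM sample, with all tested genes as diamonds; in TM replicate 3 the replication genes are at 63.2% and the mitotic genes are at 3.85%.

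Finally, properties of the members were compared with the size of their differences. Members with and without an E2F match in the promoter had like differences, with a median of -0.44 (19 of 19 lower in TC) and -0.48 (12 of 13 lower). Across the 38 members, which share the same 6 libraries, the difference correlated with log2 transcript length at Pearson r = -0.58, with GC content at -0.27 and with log2 mean TPM at 0.31. POLE has the longest transcript of the members, at 8011 bases, and RPA3 one of 2020 bases. After the trend over transcript length and GC content was removed from each sample, the difference of POLE was -0.87, and the member median was -0.24 against 0.03 for all tested genes. There, GINS4, POLA2, POLE, RFC3, UHRF1 and, higher in TC, RPA3 had an unadjusted p under 0.05. These are 13.2% of members lower and 2.63% higher, against 6.01% and 5.81% of all tested genes.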

How the data were processed

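MDA-MB-231 xenograft RNA was sequenced in 3 TC and 3 TM samples, grouped by title. Per the study's methods and the submitters' processing notes, the authors trimmed paired reads (SeqPrep, Sickle), aligned them with HISAT2 to hg38, assembled with StringTie and quantified with RSEM, and deposited TPM per gene. The annotation release and a step parting mouse from human reads are not given in the sources used here. TPM keeps no depth, so DESeq2, which the study names, could not be run and no counting interval is given. The matrix held 60930 features, of which 259 loci outside the annotation were left out, and 0 columns of values belonged to no sample.

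Values were tested as log2(TPM + 1) with limma 3.58.1 (R 4.3.3, trend, two-sided, no covariate, Benjamini-Hochberg) after the filter of 1 TPM in 3 samples, with calls at an adjusted p under 0.05. The script was tested on simulated data. Gene positions and transcript lengths (longest transcript) came from GENCODE v29 (GRCh38). Figures were drawn with matplotlib 3.10.9.

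The members and lists were chosen with earlier results of these data known. All 38 members are named. Values in every sample are given for members with an unadjusted p under 0.05, the most and least abundant, and the largest difference of each role; PRIM1 and the ratios were added after the values were seen. Of the other lists, up to 4 genes with the smallest p are named, with E2F2, E2F3, RB1, CDKN1A, CDK2, CDC7 and MKI67; other genes named from them were chosen after their values were seen. Alternatives were other pseudocounts, filters, scalings and moderation, a replicate block and leaving samples out. A further list of host cell markers is not reported here.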

Additional observations from a re-analysis of the deposited data

How the results depend on the processing

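Counts of genes were unstable at 3 samples against 3. Over all tested genes 19 were called, against 7 with a pseudocount of 0.1, 1 without a filter, 4 after quantile normalization, 6 after median-of-ratios rescaling, 12 without a trend, 47 with robust moderation, 1 to 17 when a sample was left out and, in alternatives chosen after the data were seen, 1 with the GC and length trend removed and 195 without TM replicates 1 and 2. The last setting leaves 1 TM sample, which is assumed to vary like the others. Among members 0 were called, against 1 with robust moderation (POLE, -1.25, adjusted p = 0.0494) and 1 without TM replicates 1 and 2 (PRIM1, -1.56, adjusted p = 0.0188). The 20 members at an unadjusted limma p under 0.05 became 11 after quantile normalization, 6 after median-of-ratios rescaling, 6 without TM replicates 1 and 2, 6 with the GC and length trend removed, and 10 to 21 when a sample was left out: 11 without TC replicate 2, 10 without TM replicate 1 and 11 without TM replicate 2. At that threshold 8.11% of all tested genes were lower and 5.32% higher after quantile normalization. The share lower was 9.94% without TC replicate 2, 9.73% without TM replicate 1 and 11.7% without TM replicate 2. The median of all 38 members, -0.45, became -0.30 after quantile normalization, -0.25 after median-of-ratios rescaling and -0.24 with the GC and length trend removed. It was -0.21 without TM replicates 1 and 2, and ran from -0.55 to -0.33 when a sample was left out. The number lower in TC was 31 to 37 in all settings. The share of all tested genes that was lower ran from 43.9% (median-of-ratios rescaling) to 72.1% (without TC replicate 1). The cause of these shifts was not tested.

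The sign changed mostly for members with small differences. After median-of-ratios rescaling these were GMNN (0.0156), POLE2 (0.00233), PRIM2 (0.0430), RPA1 (0.0221) and RPA2 (0.152), and after quantile normalization PRIM2 (0.0413) and RPA2 (0.060). They were RPA1 (0.0935) and RPA2 (0.0601) with the GC and length trend removed, and RPA2 (0.0549) without TM replicates 1 and 2. RFC2 changed sign without mitochondrially encoded genes (-0.029), without TC replicate 3 (-0.0706) and without TM replicate 3 (-0.117). Its range was -0.117 to 0.124 when a sample was left out. CCNE2, at -0.42 in the fit of all samples, changed sign to 0.0699 without TM replicates 1 and 2.

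Same-numbered TC and TM samples correlated at 0.21, -0.12 and -0.16 in their deviations from the group means. Differently numbered ones ran from -0.23 (TC replicate 1 with TM replicate 2) to 0.32 (TC replicate 3 with TM replicate 2). With 3 samples in each group these values cannot decide whether samples are paired. Since the labels do not say, the numbers were not taken to pair them. With the replicate block, 1 gene was called over all tested genes and 0 among members. An unadjusted p under 0.05 was reached by 14 members, all lower in TC (36.8%, where 12.1% of all tested genes were). Depth is unknown, so limits from counting cannot be given.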
